A study of Marchantia polymorpha and Arabidopsis thaliana with 54 samples.

Results

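The genes described here are 60 nuclear genes of Arabidopsis thaliana whose transcripts were raised by heat to a like degree in a wild-type and in a heat shock factor mutant line. They were chosen by a rule on the measured heat response itself, from read counts of 27655 genes. For each line the response L is log2 of (mean heat CPM + 0.5) over (mean control CPM + 0.5), where CPM is the read count scaled to library size with TMM factors and the means run over replicates 1 to 3. A gene was kept if L was at least 2 in both lines and the 2 values lay within 1 of each other. Of 22548 nuclear genes that passed the filter on low counts, 624 (2.77%) had an L of at least 2 in Col-0, 261 (1.16%) in the mutant line and 108 in both, and 60 (0.266%) met the whole rule. Of the other genes raised in both lines, 30 were raised more in Col-0 and 18 more in the mutant line, by over 1. Since these values chose the genes, the heat responses below are a description and were not tested.

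Whole seedlings grew on agar medium with sucrose at 22 °C in continuous light to day 7 and were then held at 37 °C for 0 or 1 h. Col-0 is the wild-type accession. The second line, eTK, carries knockouts of HSFA1A, HSFA1B and HSFA1D according to its labels, and the promoter, allele and insertion behind them were not given there. The 4 groups were Col-0 control (6 libraries), Col-0 heat (3), eTK control (6) and eTK heat (3), and controls 4 to 6 of each line were labelled batch 2 and all other libraries batch 1. Libraries held 58370609 to 110875442 counts. HSFA1B (0.985 to 1.86 CPM against 10.3 to 15.2) and HSFA1D (5.05 to 6.55 against 13.7 to 15.5) were lower in all 6 controls labelled eTK than in all 6 Col-0 controls, while HSFA1A was higher there (9.18 to 13.9 against 4.68 to 7.09), so that the line is called by its label.

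HSFA1 factors are the master activators of the heat shock response in plants. They bind heat shock elements, inverted repeats of a short unit in promoters, and switch on chaperone genes and further heat shock factors. Heat also acts through other routes, among them the unfolded protein response that begins in the endoplasmic reticulum, entry of calcium into the cytosol, and the general stress response that wounding, touch and cold share, in which calmodulin-binding transcription activators (CAMTA factors) bind short CGCG-containing sites. The members are set beside these routes by their annotation and their promoters.

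The sequences that carry the comparison are shown first. They are the 250 bases before the annotated gene start in RefSeq TAIR10.1, 5′ to 3′ on the strand of the gene, for 5 members that hold a match to a calcium- or endoplasmic-reticulum-linked motif. The motifs marked, on both strands, were the CAMTA site (ACGCGT or CCGCGT), RSRE and ERSE-I. The rapid stress response element RSRE (CGCGTT) overlaps the CAMTA site in AACGCGT. ERSE-I is the endoplasmic reticulum stress element, in which CCAAT and CACG stand 10 bases apart. Most other motifs searched are given with the promoter shares below. Capitals mark the matches. TCH2 (chr5:14999620-14999869, minus strand) holds 2 copies of the palindrome AACGCGTT, AT4G34150 (chr4:16354607-16354856, plus strand) holds 1 overlapping match of both CGCG motifs and AT4G27652 (chr4:13809529-13809778, plus strand) holds 1 CAMTA site, while UTR3 (chr1:4913168-4913417, minus strand) and AT4G32480 (chr4:15675990-15676239, plus strand) hold ERSE-I.
TCH2: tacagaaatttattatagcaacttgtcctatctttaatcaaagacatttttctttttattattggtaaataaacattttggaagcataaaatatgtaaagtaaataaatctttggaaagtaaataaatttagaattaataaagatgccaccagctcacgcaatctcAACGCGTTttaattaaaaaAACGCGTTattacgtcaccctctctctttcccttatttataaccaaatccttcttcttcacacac
AT4G34150: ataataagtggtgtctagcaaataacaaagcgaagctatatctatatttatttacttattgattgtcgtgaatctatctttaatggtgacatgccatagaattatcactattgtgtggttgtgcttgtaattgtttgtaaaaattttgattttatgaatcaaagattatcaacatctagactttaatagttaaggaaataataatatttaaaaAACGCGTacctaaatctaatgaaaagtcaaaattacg
AT4G27652: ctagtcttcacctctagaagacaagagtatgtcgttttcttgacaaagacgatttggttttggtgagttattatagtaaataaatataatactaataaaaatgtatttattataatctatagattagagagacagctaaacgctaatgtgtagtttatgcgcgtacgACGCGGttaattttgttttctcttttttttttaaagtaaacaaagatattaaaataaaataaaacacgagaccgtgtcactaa
UTR3: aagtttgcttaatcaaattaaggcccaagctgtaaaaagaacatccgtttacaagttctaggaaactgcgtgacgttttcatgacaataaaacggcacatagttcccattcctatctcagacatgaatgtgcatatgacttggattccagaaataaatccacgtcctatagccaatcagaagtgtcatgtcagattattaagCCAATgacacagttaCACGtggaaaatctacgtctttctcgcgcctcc
AT4G32480: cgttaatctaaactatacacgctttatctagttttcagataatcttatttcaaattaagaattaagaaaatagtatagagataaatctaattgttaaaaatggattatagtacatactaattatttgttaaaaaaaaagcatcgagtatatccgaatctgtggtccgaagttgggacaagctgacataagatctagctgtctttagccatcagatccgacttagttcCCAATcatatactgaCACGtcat

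The 60 genes made a small but steep rise in both lines. Their summed level was 1141 to 1488 CPM in Col-0 controls and 9481 to 11070 CPM in Col-0 heat, and 1045 to 1248 CPM and 10220 to 10990 CPM in the line labelled eTK. The ranges of control and heat libraries were far apart, and those of the 2 lines in heat overlapped. The overlap rests on the TMM factors, which were 0.642 to 0.669 in Col-0 heat and 1.01 to 1.02 in eTK heat: scaled by library size alone the heat sums were 6206 to 7110 CPM in Col-0 and 10431 to 11231 CPM in eTK, apart from each other. Most of these counts fell on 5 genes: BIP1, AT5G25280, AT5G10540, GTE2 and TCH3 together made up 68.0% to 68.6% of the members' summed CPM in Col-0 heat and 68.1% to 69.6% in eTK heat, and mean heat levels of members, not corrected for length, ran from 1.66 CPM (SFH12 in Col-0) to 2986 CPM (BIP1 in Col-0). Per kb of transcript, AT2G41105 (1864 CPM per kb in Col-0 heat and 1305 in eTK heat) and BIP1 (1053 and 792) were highest. AT2G41105 lies within TCH3 on the opposite strand, so its value may hold reads of TCH3, set over a transcript of 334 bases. The median L was 2.88 in Col-0 (2.01 to 5.02) and 2.82 in eTK (2.00 to 4.33), beside medians of -0.02 and -0.01 over all nuclear genes. With library-size scaling alone the members' medians were 2.30 and 2.79. L was larger in eTK for 36 members and smaller for 24, and with library-size scaling alone for 49 and 11, so that levels and responses set across the lines in heat below hold for TMM scaling. In 58 of 60 members every heat library lay above every control library of the same line, batch 2 included, in both lines. This was so for 13.8% of nuclear genes, and nothing is read from the members' count since the rule used these contrasts. The exceptions were AT2G34610 and AT1G65490. The median coefficient of variation between replicates was 14.5% in Col-0 heat and 9.73% in eTK heat.

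**Figure D1:**
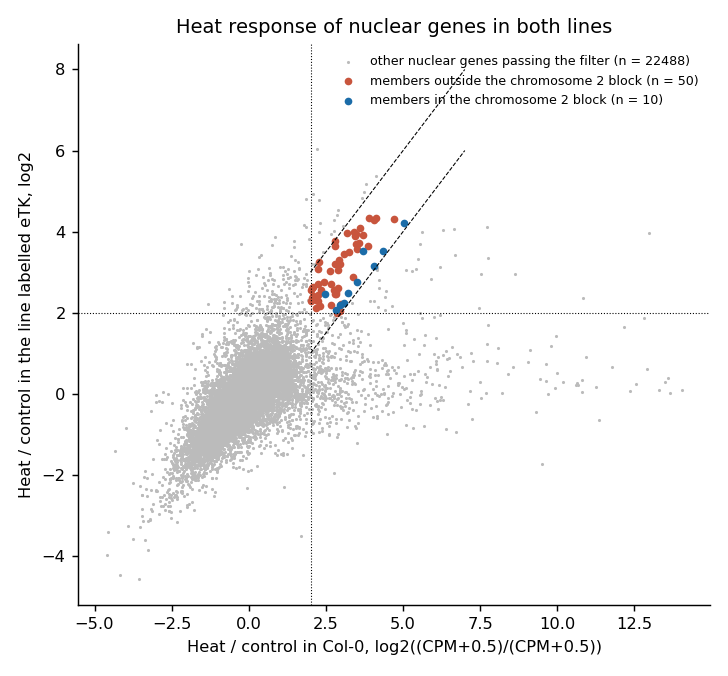
Heat response in Col-0 (x axis) and in the line labelled eTK (y axis) as log2 of heat over control CPM with 0.5 added, one point per nuclear gene that passed the filter. Dotted lines mark the minimum of 2 and dashed lines a difference of 1 between the lines; the 60 members fill the space between them, and 8 of the 10 chromosome 2 genes lie more than 0.5 below equal response.

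At the threshold of 2 in Col-0 the members just inside were AT2G27080 (L of 2.01), AT5G65300, AT1G27350, AT1G72940 and SFH12 (2.07), and the genes just outside were CBF2 (1.94), ERF-1, AT1G79160, AT5G58120 and AT3G26512 (1.86). At the same threshold in eTK ERF53 (2.00), AT2G32210, AT2G07695, AT1G65490 and BT1 (2.16) lay inside, and AT2G07779 (1.97), AT1G30190, AT2G07675, AT5G64870 and AT5G11090 (1.83) outside. The limit on the difference kept BCS1 (0.98), AT1G72800, AT2G32210, AT2G07798 and ERF53 (-0.86, eTK minus Col-0) and left out AT1G72910 (1.06), AT2G07722, AT1G72920, AT2G07652 and ATAF2 (1.10). Membership near these limits therefore turns on small differences.

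UTR3, AT1G27350 and BIP1 belong to the endoplasmic reticulum, where secreted proteins fold. BIP1, the HSP70 chaperone of its lumen, had the highest mean CPM of any member in heat in both lines, not corrected for length. Its Col-0 controls read 285, 287, 229, 269, 278 and 266 CPM and its Col-0 heat libraries 2821, 3136 and 3002 CPM. Controls labelled eTK read 168, 173, 181, 162, 187 and 161 CPM, and heat libraries 2179, 2290 and 2265 CPM. All heat libraries stood above all controls, and in both conditions every eTK library was below every Col-0 library; in heat this order turned with library-size scaling alone (1847 to 2098 CPM in Col-0 and 2205 to 2342 CPM in eTK). L was 3.48 in Col-0 and 3.69 in eTK. BIP1 and BIP2 are near-identical, and how reads that map to both were counted was not given in the sources used here. BIP2 was left out by the rule because its L was 2.86 in Col-0 and 4.40 in eTK.

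UTR3, a carrier of nucleotide sugars into the endoplasmic reticulum, rose from 20.7 to 29.1 CPM in Col-0 controls to 170, 219 and 234 CPM in heat, and from 23.2 to 26.1 CPM in eTK controls to 159, 157 and 147 CPM. Its promoter with the ERSE-I match is shown above, and its heat and control libraries did not overlap in either line. AT1G27350, which encodes the ribosome-associated membrane protein RAMP4, was at 38.1 to 47.7 CPM and 151 to 172 CPM in Col-0 control and heat, and at 31.6 to 36.8 CPM and 158 to 190 CPM in eTK. Of 23 tested genes of a list of endoplasmic reticulum chaperones and folding enzymes, 4 had an L of at least 2 in Col-0, 12 in eTK and 3 in both, and BIP1 was the only member. The list's median L was 0.91 in Col-0 and 2.14 in eTK. CNX1, a lectin chaperone, had 1.50 and 3.30, and HSP90.7, the HSP90 of the lumen, 1.03 and 3.14. Of the 23, 19 had an L under 2 in Col-0 and so fell outside the rule.

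Calcium-binding proteins made up 5 of the members. TCH3, a calmodulin-like protein first known as induced by touch, was at 65.7, 81.4 and 72.4 CPM in Col-0 controls 1 to 3, at 156, 177 and 116 CPM in controls 4 to 6 and at 824, 680 and 917 CPM in heat. In eTK it was at 44.9, 35.3 and 33.2 CPM, then 46.7, 66.7 and 50.0 CPM, and 624, 584 and 487 CPM in heat. Groups of control and heat did not overlap, and the second control batch stood above the first in Col-0. TCH2, another calmodulin-like touch gene, went from 13.0 to 16.4 CPM in Col-0 controls 1 to 3 to 62.8, 73.4 and 73.2 CPM in heat, and from 12.3 to 13.8 CPM to 97.2, 89.4 and 78.7 CPM in eTK. Its controls 4 to 6 were at 27.8 to 32.1 CPM and 20.5 to 25.4 CPM, so that with them as base its L is 1.22 in Col-0 and 1.94 in eTK.

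AT4G27280, an EF-hand protein, had an L of 3.89 in Col-0, where it reached 89.5 to 97.3 CPM, and of 4.33 in eTK, where it reached 143 to 160 CPM. AT4G34150, with a lipid-binding C2 domain, had 2.17 and 2.31, and BAP1, a C2-domain protein that restrains cell death, 2.94 and 3.21. All 5 had the larger L in eTK. Of 16 tested genes of a calcium and touch list, 5 had an L of at least 2 in Col-0, 5 in eTK and 4 in both, with a median L of 0.79 and 0.96. TCH4, a cell wall enzyme, had 5.55 and 3.69, and CML37, another calmodulin-like protein, 6.00 and 1.89, so that these lie outside the rule.

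AT2G41105, a member annotated as uncharacterised, lies wholly within TCH3 on the opposite strand (chr2:17138333-17139159, 827 bases). Its CPM was 0.714 to 0.778 of that of TCH3 in every one of the 18 libraries. Whether strand was used in counting was not given in the sources used here, and without it the reads of the 2 genes cannot be told apart. GTE2 likewise lies within AT5G10540 on the opposite strand over all its 1919 bases. Its CPM was 0.434 to 0.543 of that of AT5G10540 in controls and 0.764 to 0.814 in heat. AT5G51190 overlaps a neighbour on the other strand, AT5G51180, over 965 bases, and that gene had an L of 1.47 and 1.53. The 60 members thus hold pairs whose reads may be shared, and sums and counts over members may then hold the same reads again.

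Transcription factors and other transcriptional regulators made up 11 of the members. AT5G51190, an ethylene response factor also named ERF105, had the largest rise among them: Col-0 controls were at 1.61, 1.95, 1.79, 3.46, 4.27 and 2.29 CPM and heat libraries at 39.3, 40.8 and 38.6 CPM. Controls labelled eTK were at 2.39, 1.55, 1.50, 2.82, 4.56 and 5.90 CPM and heat libraries at 46.3, 45.7 and 45.8 CPM. Heat libraries lay close together and well above controls in both lines. AT1G33760, of the same AP2/ERF class, rose from at most 0.458 CPM in controls of either line to 6.64 to 7.65 CPM in Col-0 heat and 7.02 to 9.06 CPM in eTK heat. Other members of the class were AT1G22190 (L of 2.89 and 3.05 in Col-0 and eTK), a RAP2.4 relative, and ERF53 (2.87 and 2.00), which acts in drought.

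MYB102, a MYB factor of wounding and osmotic stress, had an L of 3.51 and 3.56, and the zinc finger proteins ZFP5 (hair formation) and SZF1 (salt stress) 2.76 and 2.55, and 2.23 and 3.09. GTE2, a bromodomain protein, had 3.24 and 3.49, AT5G46710, of the PLATZ zinc finger family, 2.78 and 2.47, and BT1, a BTB and TAZ domain scaffold, 2.31 and 2.16. WRKY46, a factor of defence and drought, was at 0.521 to 0.621 CPM in Col-0 controls 1 to 3, 2.40 to 2.46 CPM in controls 4 to 6 and 5.40, 5.79 and 6.91 CPM in heat. In eTK it was at 2.77, 1.33 and 0.854 CPM, then 0.582, 1.13 and 0.884 CPM, and 18.4, 18.4 and 14.1 CPM in heat. Its heat level was higher in all eTK than in all Col-0 libraries, and the order of the lines in control turned between the batches. None of 17 tested genes of a list of early stress transcription factors was a member: 7 had an L of at least 2 in Col-0, 7 in eTK and 3 in both. DREB2A, a main heat-responsive factor, had 8.64 and 2.95.

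Proteins linked to immunity made up another 5. AT1G72900 and AT1G72940, both with a TIR domain as in plant immune receptors, lie 8198 bases apart on chromosome 1, and their neighbours AT1G72910 (L of 2.14 and 3.20) and AT1G72920 (3.07 and 4.15) fell just outside the rule. AT1G72900 was at 9.60 to 10.9 CPM in Col-0 controls 1 to 3 and 67.4, 75.9 and 79.5 CPM in heat, and at 3.28 to 6.03 CPM and 70.0, 70.7 and 48.3 CPM in eTK. The lines stood apart in control and overlapped in heat. HSPRO2, a gene of basal resistance, was at 24.5 to 30.4 CPM and 156 to 200 CPM in Col-0 control and heat, and at 25.6 to 44.1 CPM and 311 to 376 CPM in eTK. NUDT7, a nudix hydrolase that restrains immune signalling, had an L of 2.67 and 2.19, and AT2G27080, a LEA hydroxyproline-rich glycoprotein, 2.01 and 2.57.

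AGP1, PHI-1 and AT1G07135 act at the cell wall or surface, and all 3 had the larger L in eTK. AGP1, an arabinogalactan protein, was at 15.3 to 29.4 CPM in Col-0 controls and 280, 297 and 365 CPM in heat, and at 16.7 to 24.2 CPM and 259, 283 and 265 CPM in eTK. PHI-1, of the EXORDIUM-like family, was at 26.1 to 35.4 CPM in Col-0 heat and 63.5 to 73.2 CPM in eTK heat, and was 1 of 5 members whose heat level was higher in eTK by over 1 on the log2 scale (1.19; 21 members with library-size scaling alone). The others were WRKY46 (1.42), AT1G72940 (1.17), AT4G29780 (1.13) and AT1G72800 (1.04), and AT2G32210 was lower by over 1 (-1.12; none with library-size scaling alone). AT1G07135, a glycine-rich protein, had an L of 3.42 and 3.99.

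Further annotated members were ACS11, an enzyme of ethylene synthesis (L of 2.81 and 2.52), RAS1, a salt and abscisic acid response gene (2.91 and 3.31), and BCS1, also named OM66, an ATPase of the outer mitochondrial membrane (2.79 and 3.77). SFH12, a lipid transfer protein, was at no more than 0.0589 CPM in any control and at 0.757 to 2.64 CPM in heat. BCS1 was the only member among 8 tested genes of a mitochondrial retrograde list, of which 3 had an L of at least 2 in Col-0, 1 in eTK and 1 in both. Another 14 members have little-known functions. AT4G27652 had the largest L in Col-0 of any member but AT2G07698, with controls at 1.72 to 2.94 CPM and heat at 61.6, 66.1 and 68.4 CPM, against 1.20 to 2.42 CPM and 38.4, 38.4 and 38.3 CPM in eTK. AT5G25280, a serine-rich protein, reached 982, 1058 and 1382 CPM in Col-0 heat and 1849, 1802 and 1726 CPM in eTK heat from controls at 105 to 184 CPM.

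None of the 14 genes of a list of cytosolic and organelle heat shock proteins was a member. All 14 had an L of at least 2 in Col-0 and 1 did in eTK, and the medians were 11.56 and 0.46. Among 16 tested heat shock factors 7 passed in Col-0, 2 in eTK and 1 in both. Lists of jasmonate, abscisic acid, detoxification, polyubiquitin, unfolded protein response signalling and endoplasmic-reticulum-associated degradation genes held no member. These lists show what the rule left out and are not a test of it.

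**Figure D2:**
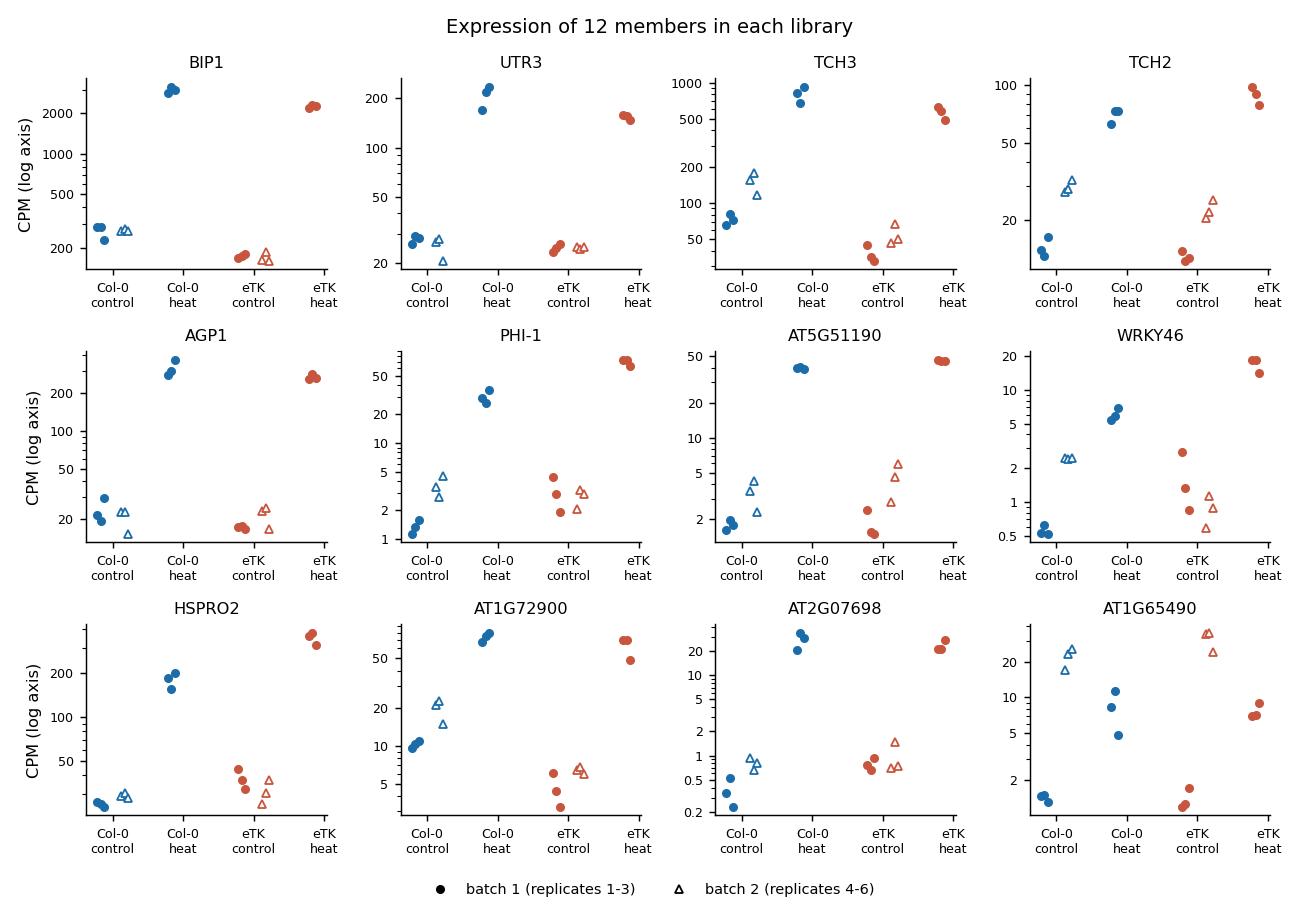
CPM on a log axis of 12 members in each library, by group; filled circles are batch 1 and open triangles batch 2, blue Col-0 and red the line labelled eTK. Heat libraries lie above the controls of their own line in 11 of the 12, and in AT1G65490 the batch 2 controls of 17.1 to 34.9 CPM lie above the heat libraries of 4.86 to 11.4 CPM.

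A block of 10 members spanned 162 kb of chromosome 2 (chr2:3251566-3413161), near the centromere, where a copy of the mitochondrial genome is inserted in the nuclear genome. Each was covered over 100% of its bases by alignments to the mitochondrial genome of TAIR10.1, at 99.8% to 100% identity in its best alignment. Of 22547 nuclear genes searched, 56 were covered by at least 90%, and all 56 lay in the same AT2G07 series of identifiers. The block members span copies of atp1 (AT2G07698), atp9 (AT2G07671), nad3 (AT2G07751), rpl2 (AT2G07715) and ccmC (ABCI4), which encode subunits of ATP synthase, complex I and the mitochondrial ribosome and a factor of cytochrome c assembly. AT2G07698 differs from the mitochondrial sequence at 1 of 2665 aligned bases. The stretch around that difference lies in coding sequence at chr2:3361898-3361958 on the plus strand. It is shown with the differing base in capitals, since reads of the aligned bases that do not cover that base match both copies alike. The difference is T31C, counted from 1 at the 5′ end with the nuclear base first.
nuclear AT2G07698: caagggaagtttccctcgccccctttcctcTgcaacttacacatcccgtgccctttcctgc
mitochondrial genome: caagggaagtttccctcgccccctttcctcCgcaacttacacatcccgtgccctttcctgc

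AT2G07698 had the largest L of all members in Col-0. It was at 0.339, 0.520, 0.231, 0.926, 0.654 and 0.810 CPM in Col-0 controls and 20.4, 33.4 and 28.6 CPM in heat, and at 0.760, 0.667, 0.941, 0.693, 1.48 and 0.741 CPM in eTK controls and 21.3, 21.4 and 27.7 CPM in heat. The summed level of the 10 genes was 2.21 to 4.31 CPM in Col-0 controls, 73.5 to 113.7 CPM in Col-0 heat, 2.75 to 4.24 CPM in eTK controls and 59.9 to 75.4 CPM in eTK heat. The mean level of 9 of them was under 1 CPM in the controls of both lines, and ABCI4 rested on 0 to 8 counts per control library. In all 10 the L in eTK was below that in Col-0 (by under 0.01 in ABCI4), with medians of 3.36 and 2.62, while outside the block 36 of 50 had the larger L in eTK, with medians of 2.81 and 2.95. With library-size scaling alone L was smaller in eTK in 8 of the 10 (medians of 2.81 and 2.62), and larger in 47 of the 50.

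Counts assigned to identifiers of the mitochondrial genome were raised in heat as well. Of 74 tested mitochondrial identifiers, 48 had an L of at least 2 in Col-0 and 34 in eTK, with medians of 2.63 and 1.91. Their share of all counts was 0.00417% to 0.00803% in controls and 0.0543% to 0.0932% in heat. The 56 nuclear copies had medians of 2.35 and 1.35, and 35 had an L of at least 2 in Col-0 and 15 in eTK. From the counts, reads of the nuclear copies and of the mitochondrial genes cannot be told apart.

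**Figure D3:**
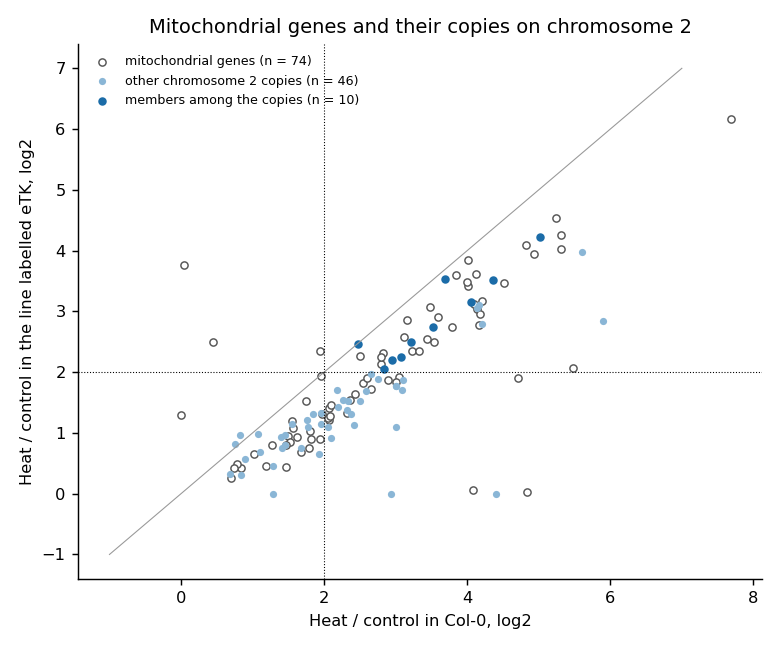
Heat response in Col-0 and in the line labelled eTK of 74 mitochondrial identifiers (open), 46 other nuclear copies (light blue) and the 10 members among the copies (dark blue), as log2 of heat over control. In Col-0 the nuclear copies (0.68 to 5.90) lie within the range of the mitochondrial identifiers (up to 7.69), and most points of both lie below the grey line of equal response.

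The level in control seedlings differed between the batches for many members. Controls 1 to 3 were the base of L in the rule, which favours genes that read low there. The members' shares are therefore no measure of a batch effect, and its part was not tested. In Col-0 50 of 60 members had a higher mean in controls 4 to 6 than in controls 1 to 3, and in eTK 40 of 60. Over all nuclear genes, which the rule did not choose, the shares were 48.7% and 46.6%. The median log2 difference of batch 2 over batch 1 was 0.37 in Col-0 and 0.18 in eTK, and it exceeded 1 for 12 members in Col-0 and 5 in eTK. AT1G65490, of unknown function, was the extreme case: it was at 1.30 to 1.51 CPM in Col-0 controls 1 to 3, 17.1 to 25.4 CPM in controls 4 to 6 and 4.86 to 11.4 CPM in heat. In eTK it was at 1.20 to 1.73 CPM, 24.1 to 34.9 CPM and 6.95 to 8.97 CPM. With controls 4 to 6 as base its L is -1.37 in Col-0 and -1.94 in eTK.

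Heat was measured in batch 1 alone, and the part of batch in the second set of values was not tested. With controls 4 to 6 in place of 1 to 3, 35 of the 60 genes still met the whole rule, 9 of 10 in the chromosome 2 block and 26 of 50 outside it. Of the 25 that did not, 20 had an L under 2 in Col-0, 7 had one under 2 in eTK, and 4 (PHI-1, AT1G07135, AT4G29780 and AT2G07671) had both above 2 but differing by over 1. An L of at least 1 in both lines remained in 58 of 60. BIP1 (3.46 and 3.72), UTR3 (3.02 and 2.61), TCH3 (2.43 and 3.36), AT4G27280 (3.17 and 3.77), AGP1 (3.92 and 3.62) and AT5G51190 (3.38 and 3.24) were among those kept. WRKY46 fell from an L of 2.63 to 1.15 in Col-0, BT1 from 2.31 to 1.16 and AT2G34610 from 2.09 to 0.42.

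The means in the rule did not use controls 4 to 6, so the lines could be compared there. These controls did enter the TMM factors and the filter on low counts behind the rule, which ran over all 18 libraries. With edgeR's quasi-likelihood test on 3 against 3 libraries and Benjamini-Hochberg adjustment over 22067 genes, 56 members were tested and 4 (AT2G07706, ABCI4, AT2G07695 and SFH12) had too few counts. In eTK 13 members were lower and 2 higher at an adjusted p below 0.05, beside 10.6% and 5.54% of all genes tested (16.2% in either direction). That is 23.2% and 3.57% of the tested members, with a median log2 difference of -0.23 against 0.02 over all genes. The 7 tested genes of the chromosome 2 block gave no call. In bulk seedlings, fewer cells of a type and less RNA per cell cannot be told apart.

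The lower members included the 2 touch genes, AT1G72900, NUDT7 and BIP1. Levels follow as mean ± SD over 3 libraries, Col-0 first, with the log2 difference ± SE. AT1G72900 had 19.7 ± 4.19 CPM against 6.41 ± 0.412 CPM (-1.63 ± 0.163; edgeR adjusted p = 0.000272). TCH3 was at 150 ± 30.7 CPM and 54.5 ± 10.7 CPM (-1.46 ± 0.184; edgeR adjusted p = 0.00097), with its antisense partner AT2G41105 at -1.47, and TCH2 at 29.6 ± 2.24 CPM and 22.7 ± 2.50 CPM (-0.39 ± 0.104; edgeR adjusted p = 0.0367). NUDT7 had 35.4 ± 2.74 CPM against 17.3 ± 0.715 CPM (-1.04 ± 0.0888; edgeR adjusted p = 0.00012). BIP1 had 271 ± 6.37 CPM against 170 ± 14.6 CPM (-0.68 ± 0.0989; edgeR adjusted p = 0.0021).

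ACS11 (-1.49), BAP1 (-1.39), AT5G17350 (-1.08), BCS1 (-0.89), AT2G32210 (-0.81) and SZF1 (-0.61) were lower as well, and WRKY46 by -1.50 ± 0.263 (edgeR adjusted p = 0.00526). In all 13, the 3 eTK libraries lay below the 3 Col-0 libraries. These libraries gave the calls and the share over all genes was not counted, so this adds nothing to the calls. The higher members were AT4G32480, a DUF506 protein (16.4 ± 4.14 CPM against 32.9 ± 7.02 CPM, 1.00 ± 0.207, edgeR adjusted p = 0.0118), and AT1G72940 (6.76 ± 0.394 CPM against 11.0 ± 2.32 CPM, 0.70 ± 0.157, edgeR adjusted p = 0.0167). The call for AT1G72940 was lost without Col-0 control 4 (0.64, edgeR adjusted p = 0.0744) or without Col-0 control 5 (0.72, edgeR adjusted p = 0.0507).

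In batch 1, whose controls entered the rule, the same fit placed 14 members higher and 8 lower in eTK. This stands beside 18.1% and 18.9% of all genes tested, and the members' median log2 difference was 0.17. The sign of the difference was the same in both batches for 36 of the 54 members tested in both and for 13 of the 15 called ones, BAP1 (0.49 in batch 1) and WRKY46 (1.54 in batch 1) being the others. AT1G72900 (-1.19), TCH3 (-0.96), BIP1 (-0.62) and NUDT7 (-0.43) were lower in eTK in batch 1 also, while ACS11 (-0.15) and AT4G32480 (0.19) were close to 0 there. For ACS11 Col-0 controls read 1.74, 1.84 and 1.76 CPM in batch 1 and 6.29, 6.72 and 4.32 CPM in batch 2, and eTK controls 0.959 to 2.55 CPM in all. The batch 1 controls were used by the rule, so these values are a description and lend no weight to the batch 2 calls.

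**Figure D4:**
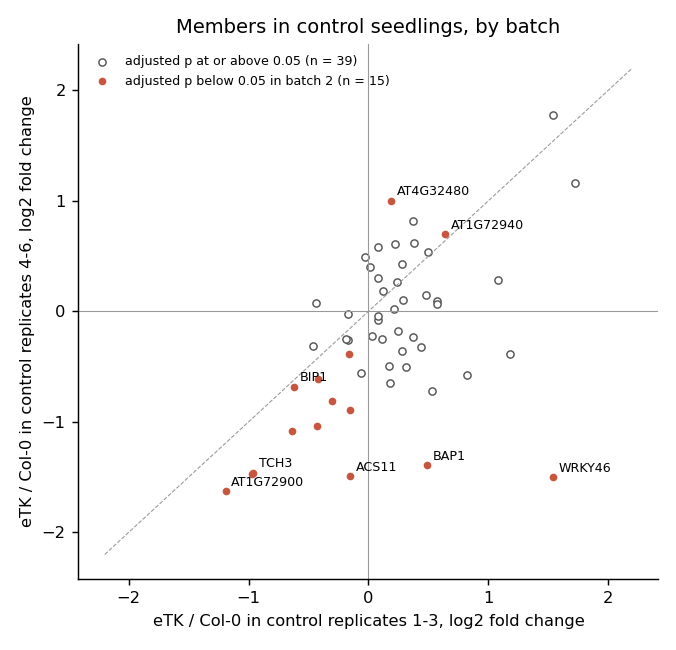
Log2 fold change of eTK over Col-0 in controls 1 to 3 (x axis) and 4 to 6 (y axis) for the 54 members tested in both, filled where the adjusted p was below 0.05 in controls 4 to 6. Most filled points lie below 0 on both axes, and WRKY46 lies at 1.54 in batch 1 and -1.50 in batch 2.

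Promoters were compared over the 250 bases before the annotated start, for the 50 members outside the chromosome 2 block. The CAMTA site was found in 8 of 50 (16.0%), against 3.59% of 22547 nuclear genes that passed the filter and 3.3% of all 37897 promoters of this length. It was in 2.87% of 418 genes with an L of at least 2 in Col-0 and under 1 in eTK, and in 9.3% of 86 genes with the reverse pattern. RSRE was found in 6 members (12.0%), against 2.78%, 2.58%, 3.11% and 3.49% in the same sets. Since the motifs overlap, 9 members (18.0%) held at least 1 of them, against 4.71% of the genes that passed the filter. PHI-1 held RSRE alone, AGP1, AT4G29780 and AT4G27652 the CAMTA site alone, and TCH2, AT4G34150, AT5G43620, AT5G10540 and AT2G32210 both.

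ERSE-I was found in 2 members, UTR3 and AT4G32480 (4.0%), against 0.785% of the genes that passed the filter and 0.57% of all promoters. It was in 0.957% of genes raised in Col-0 but not eTK and in 2 of 86 (2.33%) of the reverse set. BIP1 had no match to ERSE-I, ERSE-II or UPRE (TGACGTGG) in this window. The heat shock element with 2 units (GAANNTTC or TTCNNGAA) was in 24.0% of members, 22.2% of genes raised in Col-0 but not eTK, 22.1% of the reverse set, 16.0% of genes that passed the filter and 16.3% of all promoters. The element with 3 units was in 0 of the 50 and in 3.11% of genes raised in Col-0 but not eTK. It was in 0 of 86 of the reverse set and in 0.408% of genes that passed the filter. At a share that low, 0 of 50 does not set the members apart from genes that passed the filter. The G-box (CACGTG) was in 1 member (2.0%), against 7.2% of the genes that passed the filter and 5.39% of all promoters, and its core ACGTG in 18.0%, against 23.9% and 20.8%. The W-box (TTGAC) was in 56.0% of members, against 45.3% and 43.9%. In genes raised in Col-0 but not eTK the G-box, its core and the W-box were in 11.7%, 29.2% and 47.6%. In the reverse set they were in 8.14%, 24.4% and 48.8%. The DRE core was in 20.0% of members, 13.2% of genes raised in Col-0 but not eTK and 12.8% of the reverse set. It was in 12.6% of genes that passed the filter and 12.0% of all promoters. The GCC box was in 4.0% of members, against 1.91%, 0.0%, 1.94% and 1.95% in the same order. The motif labelled MDM was in 2.0%, against 1.2%, 0.0%, 0.444% and 0.491%. These shares rest on 50 promoters, were not tested, and say nothing of binding.

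**Figure D5:**
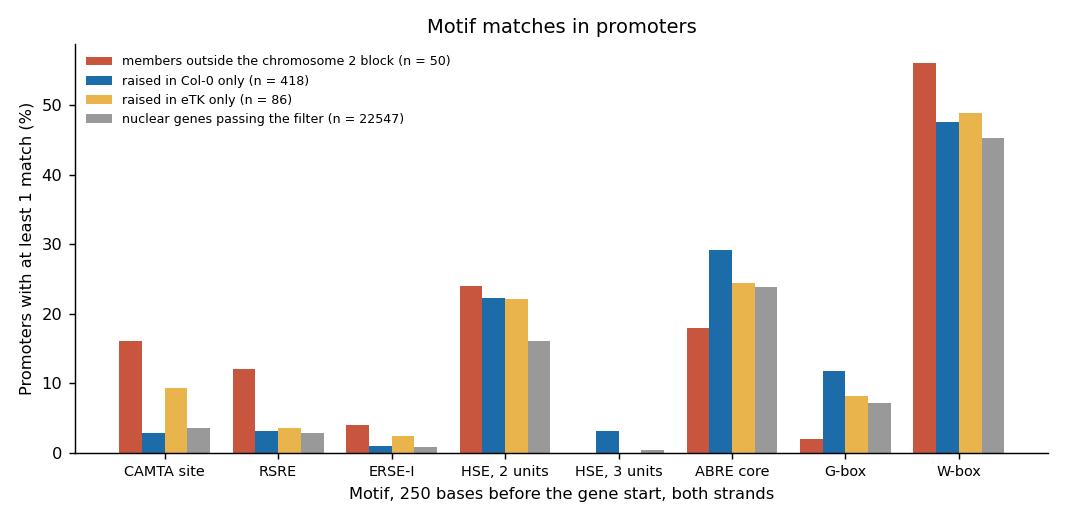
Share of promoters (%, 250 bases before the start, both strands) with at least 1 match to 8 motifs, in the 50 members outside the chromosome 2 block, in genes raised in Col-0 but not eTK (418), in the reverse set (86) and in nuclear genes that passed the filter. CAMTA site and RSRE stand at 16.0% and 12.0% in members against 3.59% and 2.78% of genes that passed the filter. The heat shock element with 3 units is seen in 0.408% of genes that passed the filter, and in none of the members or of the reverse set.

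Many members had 1 exon. Outside the chromosome 2 block this was so for 24 of 50 (48.0%), against 17.4% of nuclear genes that passed the filter, 20.3% of the 418 genes raised in Col-0 but not eTK and 40.7% of the 86 of the reverse set. Their median transcript length was 1367 bases, against 1672, 1511 and 1381. Their median control level in Col-0, not corrected for length, was 3.69 CPM, against 12.4 CPM over genes that passed the filter, and the pseudocount in L weighs more on low genes. It was 6.4 CPM in genes raised in Col-0 but not eTK and 4.64 CPM in the reverse set. These levels come from the controls that were the base of L in the rule, which favours genes that read low there. They are therefore a description of the members and were not tested. Chromosomes 1 to 5 held 16, 9, 4, 9 and 12 of the 50 members.

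Markers of other tissues in the seedlings were followed as summed CPM. The 3 root hair markers were at 21.3 to 48.5 CPM in Col-0 controls and 8.76 to 17.3 CPM in heat, and at 23.6 to 33.3 CPM and 9.82 to 14.1 CPM in eTK. The 4 stomatal lineage markers were at 39.0 to 50.2 CPM, 16.6 to 16.9 CPM, 34.5 to 48.4 CPM and 41.3 to 45.3 CPM in the same order. The markers disagreed in eTK, where FAMA, the highest of them, had an L of 0.31. TMM, MUTE and SPCH had -1.38, -0.25 and -0.51 there. In Col-0 the L of FAMA, TMM, MUTE and SPCH was -1.34, -2.06, -0.57 and -0.35. The 6 seed and embryo markers were at 0.35 to 3.36 CPM in Col-0 controls, 0.343 to 113 CPM in Col-0 heat, 6.80 to 60.3 CPM in eTK controls and 11.3 to 32.6 CPM in eTK heat. Their part in the members' values was not tested.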

How the data were processed

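Per the labels' protocols, seedling total RNA went through a NovaSeq workflow. For 18 Arabidopsis libraries the authors deposited raw read counts per gene. Subread 2.0.6 with featureCounts, STAR 2.7.9a and fastp 0.24.0 are named in the submitters' processing notes. The genome build, annotation, strand setting and treatment of reads with several matches are not given in the sources used here. Even numbers made up 75.35% to 83.28% of non-zero counts, so mates appear to have been counted singly. The 36 Marchantia samples of the series were not analysed here.

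Members, gene lists and roles were chosen with earlier results of these data known, and roles and the sequences shown were chosen after the members' values were seen. CPM with TMM factors were computed in edgeR 4.0.16 (R 4.3.3, filterByExpr by group, 22696 genes passed), and the rule added a pseudocount of 0.5 CPM. Named members are the 10 with the largest mean L, the 10 with the highest heat level, list members, those nearest each threshold and the 5 called with the largest difference in each direction; other members are named by role, after their values were seen. The lines were compared in controls 4 to 6 with glmQLFit and glmQLFTest. On simulated counts for that comparison (22067 genes, 200 changed) 88% of 2-fold and 99% of 4-fold changes were recovered, with 13 false calls. Separate cultures are not stated for the replicates, and p-values then measure no more than the spread of these samples, which may be technical. All 36 replicate pairs differed beyond sampling noise. At 58370609 to 110875442 counts per library, counts limit precision only for rare transcripts.

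Positions, exons and sequences come from RefSeq TAIR10.1 by locus tag, to which all 60 members matched. Mitochondrial copies were found with blastn 2.17.0. Alternatives were library-size scaling, DESeq2 1.42.0, other filters, pseudocounts and control sets, each replicate left out, a replicate block and, added after the data were seen, halved counts.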

Additional observations from a re-analysis of the deposited data

Results flagged for a closer look

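Among 52 groups of 6 control libraries of 26 of the named members, 6 held a library far from the other 5. Each group holds 3 libraries of each batch, and controls 1 to 3 were used by the rule, so no chance rate is set beside this count. AT2G07698 was at 1.48 CPM in eTK control 5, with the others at 0.667 to 0.941 CPM. AT1G07135 was at 4.12 CPM in eTK control 4, below 6.54 to 7.24 CPM. BIP1 was at 229 CPM in Col-0 control 3, below 266 to 287 CPM, and UTR3 at 20.7 CPM in Col-0 control 6, below 25.9 to 29.1 CPM. WRKY46 was at 2.77 CPM in eTK control 1, above 0.581 to 1.33 CPM, and AT1G72940 at 13.7 CPM in eTK control 6, above 7.63 to 9.75 CPM.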

How the results depend on the processing

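The number of genes meeting the rule was 60 with DESeq2 size factors, with no filter on low counts and with halved counts. It was 34 with library-size scaling (29 of them among the 60), which moves the median L of all nuclear genes to -0.58 in Col-0 and -0.08 in eTK, 89 with a pseudocount of 0.1 (56 shared), 44 with 1 (44 shared), 53 with controls 4 to 6 (35 shared), 45 with all 6 controls (41 shared) and 55 to 64 with 1 library left out. The count of members higher in eTK in control, 2, was 7 with DESeq2, 9 with all 12 controls and a batch term, 14 in controls 1 to 3 (beside 18.1% of all genes) and 1 to 5 with 1 library left out (5 without Col-0 control 6, 1 without Col-0 control 5). The count of lower members, 13, was 8 in controls 1 to 3 (beside 18.9%) and otherwise 9 to 17. The median difference turned from -0.23 to 0.17 in controls 1 to 3 and to 0 with all 12 controls, where WRKY46 was at 0. WRKY46 turned to 1.54 in controls 1 to 3. Controls 1 to 3 were used by the rule, so counts and values from them or from all 12 controls are a description. With a replicate block the counts were 7 higher and 17 lower, and 5310 against 3571 calls over all genes. Same-numbered controls of the 2 lines correlated in their deviations by 0.081, 0.282 and 0.353 for replicates 4, 5 and 6. Replicates 5 and 6 of Col-0 correlated best with their own number in eTK, and replicate 4 with replicate 5 (0.109). Whether the numbers pair the samples cannot be told from these values, and the main fit holds no block. The causes of these changes were not tested. When the window ran on to 50 bases after the start, the members' G-box share went from 2.0% to 4.0% and the RSRE share from 12.0% to 18.0%. In genes that passed the filter these shares went from 7.2% to 8.56% and from 2.78% to 3.68%. The members' other motif shares changed by at most 1.25 times.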
